A study of Homo sapiens with 9 samples.

Results

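The 10 genes described here are classical targets and feedback regulators of NF-kB, chosen by name as rows of a table of 24542 genes and loci. They comprise the Rel protein genes NFKB1, NFKB2 and RELB, the inhibitors NFKBIA and TNFAIP3, the survival gene BIRC3, the cytokine and chemokine genes CXCL8, IL6 and CCL2, and the adhesion gene ICAM1. All 10 were found in the table by their Ensembl identifiers. RNA was sequenced from A2780 cells, an established line from a human ovarian carcinoma, labelled as wild type, after 96 h with Pt-ttpy at 5.5 µM, with cisplatin (written Cispt in the labels) at 0.6 µM or with 0.5% DMSO. Pt-ttpy is a platinum complex described by the series as a G-quadruplex binder, cisplatin is a clinical drug whose platinum adducts crosslink DNA, and both were given at their IC80 according to the labels. A DMSO percentage was recorded for the DMSO group alone, so whether the drug groups held the same DMSO is not known here. There were 3 libraries a group, which the labels number as biological replicates. The labels do not say whether these came from separate cultures, so the p-values measure the spread between these libraries, whatever its source.

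NF-kB is a family of transcription factors assembled as dimers of Rel proteins. In resting cells inhibitors of the IkB family hold these dimers in the cytoplasm, and receptors for TNF, interleukin 1 and bacterial products release them through the IkB kinase complex. DNA damage is also known to activate the pathway. Among the genes that active dimers switch on are their own inhibitors, which closes a feedback loop, the precursors of the Rel proteins, and cytokines and chemokines that recruit leukocytes.

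Active dimers bind kappa-B sites, many of which lie close to the start of the target gene. Promoter windows of 250 bases before and 50 after the start site were available from RefSeq (GRCh38.p14) for 8 of the 10 members, 11 windows in all since NFKB1 and NFKB2 have several starts, and not for RELB and CCL2. The windows were searched on both strands for the motif GGANNTTCC (9 bases) and for the kappa-B consensus (10 bases), which can overlap each other. The first was found in 7 of the 11 windows and in 4.57% of all 35116 windows of the table, and the second in 7 of 11 and in 5.91%. One or the other was found in 9 of the 11 windows and in 9.28% of all windows. Each of the 8 members had at least 1 window with a match, whether or not the gene had counts in these cells. The members were chosen as known NF-kB targets, so their share beside that of all windows is a description and no test. A match is a run of letters and not a measurement of binding. The stretches below are shown because the expressed and the near-silent members carry the same kind of letters. They end before the start site, run 5′ to 3′ on the strand of the gene, and have the matched bases in capitals.
NFKBIA, chr14:35404801-35404850, minus strand: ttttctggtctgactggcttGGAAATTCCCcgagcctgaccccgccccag
NFKB1, chr4:102501290-102501339, plus strand: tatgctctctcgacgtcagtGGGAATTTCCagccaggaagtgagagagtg
NFKB2, chr10:102394451-102394529, plus strand: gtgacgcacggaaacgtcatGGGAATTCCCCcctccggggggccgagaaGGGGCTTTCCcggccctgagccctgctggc
TNFAIP3, chr6:137867172-137867233, plus strand: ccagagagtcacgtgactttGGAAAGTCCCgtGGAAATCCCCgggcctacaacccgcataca
BIRC3, chr11:102317265-102317314, plus strand: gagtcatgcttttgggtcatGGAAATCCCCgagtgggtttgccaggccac
CXCL8, chr4:73740458-73740506, plus strand: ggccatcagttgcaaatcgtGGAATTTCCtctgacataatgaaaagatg
IL6, chr7:22727107-22727156, plus strand: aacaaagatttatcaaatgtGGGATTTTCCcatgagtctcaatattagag
ICAM1, chr19:10270914-10270962, plus strand: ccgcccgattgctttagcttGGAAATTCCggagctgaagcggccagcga

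**Figure D1:**
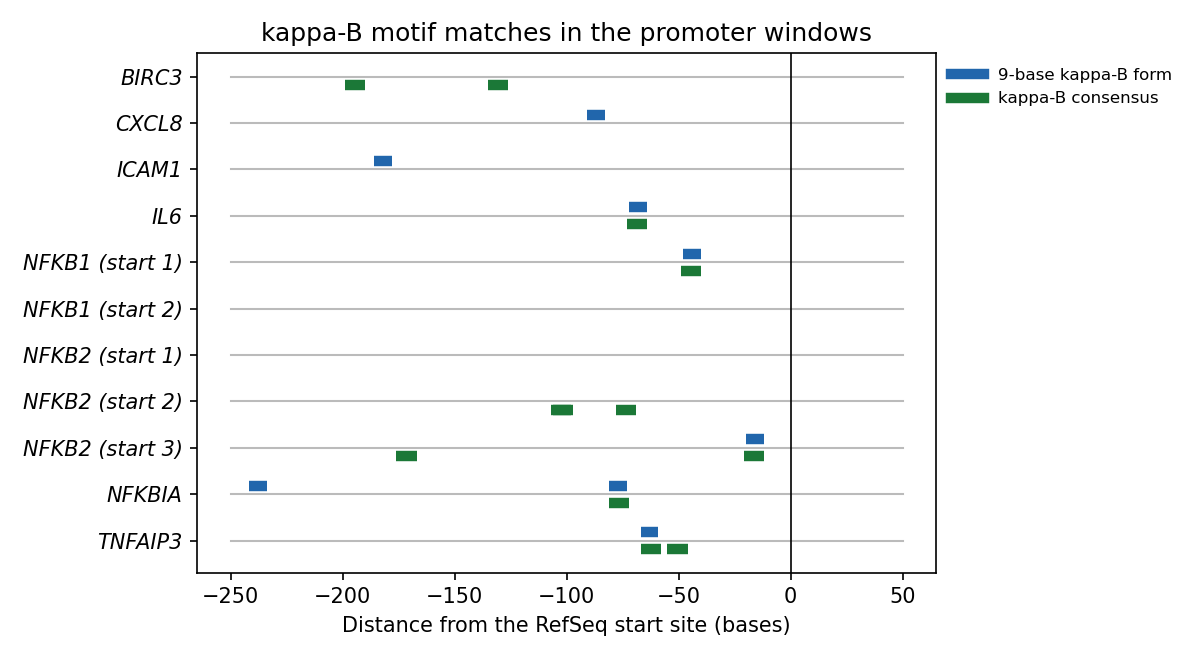
Position of kappa-B motif matches (coloured bars) in the RefSeq promoter windows of the members (grey lines, 1 per start site), against distance from the start site in bases. Matches lie in 9 of the 11 windows, and the second start of NFKB1 and the first start of NFKB2 have none.

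The libraries held 31.3 to 40.8 M counts each. DMSO 2 and cisplatin 2 stood apart from the other 7 libraries. Their levels relative to the average library were higher for GC-rich transcripts (across genes, Spearman rho 0.53 in DMSO 2 and 0.42 in cisplatin 2), while rho lay between −0.35 and −0.17 in the others. Results are therefore given with and without these 2 libraries where they differ. Of 8 markers of epithelial and ovarian carcinoma cells, EPCAM and KRT8 passed the filter on low counts, and the summed level of the 8 was 0.554 to 0.987 CPM (counts scaled to library size) with Pt-ttpy, 1.54 to 3.55 with cisplatin and 0.125 to 0.506 with DMSO. KRT8 and EPCAM were called higher with cisplatin (adjusted p = 0.00786 and 0.0338) and not with Pt-ttpy (0.0587 and 0.375). Neither reached 10 counts in any DMSO library, so both passed the filter through treated libraries alone. These calls are therefore no support for a difference. KRT8 had 8, 30 and 13 counts with Pt-ttpy and 51, 75 and 34 with cisplatin, against 6, 0 and 0 with DMSO. EPCAM had 6, 5 and 12 counts with Pt-ttpy and 35, 48 and 6 with cisplatin, against 4, 5 and 0 with DMSO. WT1 went the other way, with 0, 8 and 3 counts with DMSO and 0 in every treated library. PAX8 had 3, 12 and 10 counts with cisplatin and 0 in every other library. KRT18, KRT19, CDH1 and MUC16 had at most 9 counts in any library. Exons of KRT8 overlap those of KRT18 on the opposite strand. These 8 general markers were thus low in these libraries, and none of them was at 0 in every library. The sum of 8 leukocyte markers, most of it CD68, was 3.75 to 5.07 CPM with Pt-ttpy, 5.10 to 5.70 with cisplatin and 3.47 to 5.38 with DMSO. The sum of 4 endothelial markers was at most 0.401 CPM in any library. The part of these markers in the results was not tested.

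The members fell into an expressed and a near-silent set. NFKBIA, NFKB1, NFKB2, RELB and TNFAIP3 had at least 53 counts in each of the 9 libraries and were tested. BIRC3, CXCL8, IL6, CCL2 and ICAM1 had at most 7 counts in any library and were left out of the test by the filter on low counts. Per kilobase of merged exons, NFKB2 had the highest level with Pt-ttpy at 17.0 ± 0.336 CPM per kilobase, followed by NFKB1 at 14.2 ± 0.402, NFKBIA at 10.8 ± 0.524, RELB at 5.11 ± 0.437 and TNFAIP3 at 0.377 ± 0.0590 (SD, n = 3). With cisplatin the levels were 15.4 ± 0.964 for NFKB2, 14.0 ± 2.03 for NFKB1, 12.4 ± 0.585 for NFKBIA, 6.18 ± 0.388 for RELB and 0.514 ± 0.0440 CPM per kilobase for TNFAIP3 (SD, n = 3). With DMSO NFKB1 came first at 19.8 ± 0.700, then NFKB2 at 18.6 ± 3.46, NFKBIA at 14.4 ± 1.31, RELB at 7.997 ± 1.86 and TNFAIP3 at 0.513 ± 0.172 CPM per kilobase (SD, n = 3). In cisplatin and DMSO libraries the levels of NFKB1 and NFKB2 differed by less than their spread. RELB and TNFAIP3 kept the last places in each group.

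Against DMSO, Pt-ttpy lowered 3 of the 5 tested members, NFKB1, RELB and NFKBIA, and raised 0. Of all 15558 genes tested 5.59% were called higher and 6.45% lower. The libraries of the 2 groups did not overlap in these 3 members, all lower with Pt-ttpy, and were apart in that direction in 20.6% of all genes tested. The median log2 change was −0.44 over the 5 tested members and 0.03 over all genes tested. Here and below, p-values are from edgeR's quasi-likelihood test, adjusted by Benjamini and Hochberg over all genes tested, and a change was called at an adjusted p under 0.05. In bulk RNA, fewer cells with a transcript and less of it per cell cannot be told apart.

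NFKB1 (ENSG00000109320, chromosome 4, 102501329 to 102617302, plus strand, GRCh38) encodes p105, which is both an IkB-like inhibitor and the precursor of the p50 subunit. It had 88.1, 87.0 and 91.8 CPM in the Pt-ttpy libraries 1, 2 and 3, against 122, 129 and 121 CPM in the DMSO libraries. The groups did not overlap, and the 3 Pt-ttpy libraries lay close together. NFKB1 fell to 0.718 times the DMSO level (log2 −0.48, SE 0.11, adjusted p = 0.023, lower in 3 of 3 libraries). Without DMSO 2 and cisplatin 2 the log2 change was −0.45 (adjusted p = 8.08e-06). That fit called 33.2% of all genes tested in this comparison, against 12% with all libraries. The same share goes with its adjusted p for RELB and NFKBIA below. The call of NFKB1 was lost without Pt-ttpy 1, 2 or 3, with log2 changes of −0.47, −0.46 and −0.50 and adjusted p of 0.0934, 0.104 and 0.077.

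RELB (ENSG00000104856, chromosome 19, 45001430 to 45038198, plus strand) encodes the Rel protein that partners p52, the product of NFKB2, in the noncanonical pathway. Its level was 17.0, 14.7 and 14.8 CPM with Pt-ttpy, against 21.5, 30.8 and 20.5 CPM with DMSO. DMSO 2 was the highest of the 9 libraries, and the groups did not overlap. RELB fell to 0.639 times the DMSO level (log2 −0.65, SE 0.16, adjusted p = 0.0278). The call was lost without DMSO 2 (log2 −0.44, adjusted p = 0.0545) and without Pt-ttpy 1, 2 or 3 (0.0769, 0.117 and 0.104), and it held without DMSO 2 and cisplatin 2 together (log2 −0.43, adjusted p = 0.0048).

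NFKBIA (ENSG00000100906, chromosome 14, 35401511 to 35404749, minus strand) encodes IkB-alpha, the inhibitor that NF-kB induces most directly against itself. It had 27.0, 24.8 and 24.9 CPM with Pt-ttpy, against 30.9, 37.0 and 34.8 CPM with DMSO. The groups did not overlap. NFKBIA fell to 0.747 times the DMSO level (log2 −0.42, SE 0.12, adjusted p = 0.0363). This was the least stable of the 3 calls. It was lost without Pt-ttpy 1, 2 or 3 (adjusted p = 0.0938, 0.146 and 0.126), without DMSO 2 or 3 (0.0597 and 0.0896), without cisplatin 1 or 3 (0.0537 and 0.0528), with upper-quartile factors (0.0767) and with library totals alone (0.0673). The log2 change lay between −0.49 and −0.31 in all 20 other fits, and without DMSO 2 and cisplatin 2 it was −0.36 (adjusted p = 0.00494).

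NFKB2 (ENSG00000077150, chromosome 10, 102394110 to 102402529, plus strand) encodes p100, the precursor of p52 and an inhibitor of RELB. Its level was 74.7, 77.7 and 76.8 CPM with Pt-ttpy, against 75.4, 101 and 73.9 CPM with DMSO. Apart from DMSO 2 the libraries lay within a narrow band, and the groups overlapped. The log2 change was −0.13 (95% interval −0.41 to 0.15, adjusted p = 0.536), and without DMSO 2 and cisplatin 2 it was 0.04.

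TNFAIP3 (ENSG00000118503, chromosome 6, 137867188 to 137883312, plus strand) encodes A20, an enzyme that edits ubiquitin and ends signalling from the TNF receptor. It had 65, 76 and 53 counts with Pt-ttpy (2.00, 2.14 and 1.57 CPM), against 125, 86 and 72 counts with DMSO (3.52, 2.46 and 1.80 CPM). The groups overlapped, and DMSO 1 was the highest of the 9. The log2 change was −0.44 with a wide 95% interval of −1.09 to 0.20 (adjusted p = 0.344). Exons of TNFAIP3 overlap an antisense gene, and the strandedness of the counting is not given in the sources used here, so counts of the 2 genes cannot be told apart.

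**Figure D2:**
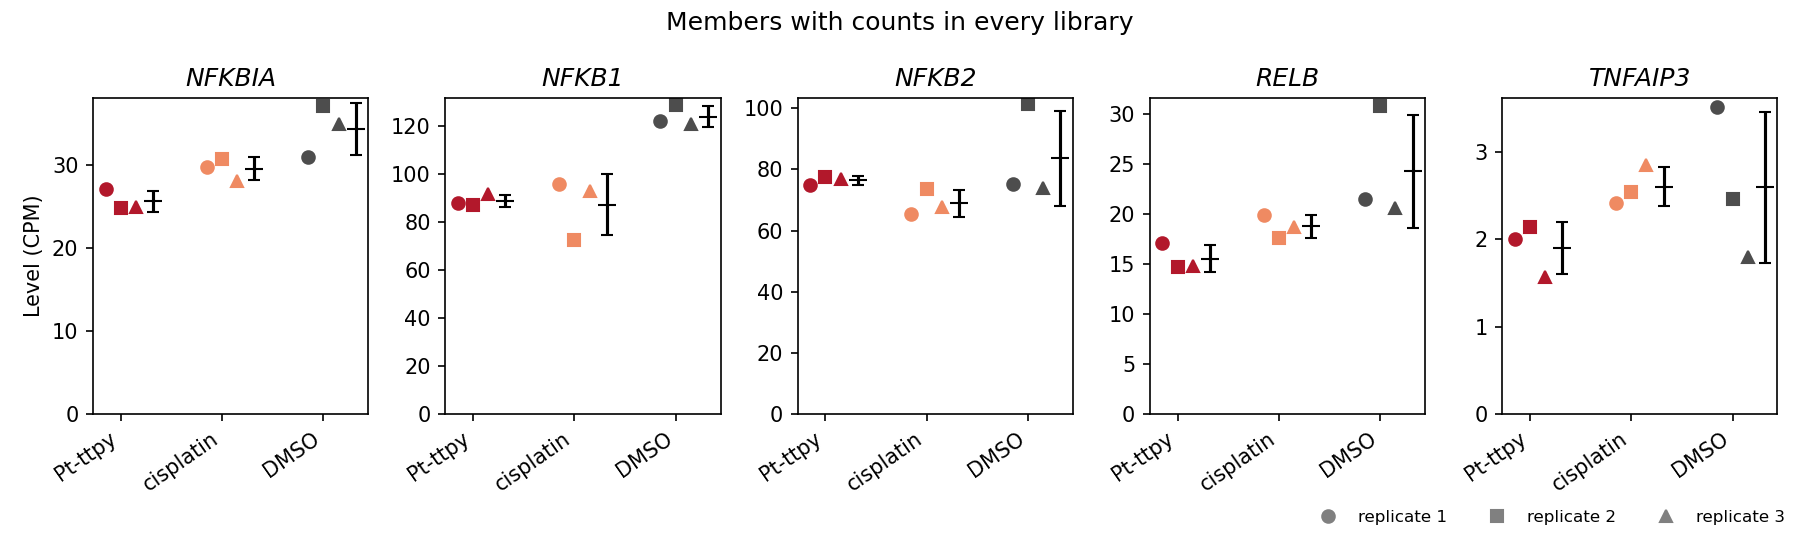
Level in CPM of the 5 tested members in each library (symbols, replicates 1 to 3), with the group mean and SD (n = 3) at the right of each group. The Pt-ttpy libraries of NFKB1, RELB and NFKBIA lie below all DMSO libraries, and DMSO 2 (square) is the highest DMSO library for NFKBIA, NFKB1, NFKB2 and RELB.

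Cisplatin lowered 1 of the 5 tested members against DMSO, NFKB1, and raised 0. Over all genes tested 10.7% were called higher and 9.78% lower, a split that leaned to higher calls with other scalings (1940 higher and 913 lower with upper-quartile factors, 1995 and 943 with library totals alone). The median was −0.28 over the tested members and 0.01 over all genes. NFKB1 had 96.1, 72.8 and 93.2 CPM in the cisplatin libraries 1, 2 and 3, against 122, 129 and 121 CPM with DMSO. Cisplatin 2 was the lowest library, and all 3 lay below DMSO. NFKB1 fell to 0.704 times the DMSO level (log2 −0.51, SE 0.11, adjusted p = 0.0118). This call held with each single library left out (adjusted p 0.0161 to 0.0314) and without DMSO 2 and cisplatin 2 (log2 −0.36, adjusted p = 0.000243). It was lost when only the 6 cisplatin and DMSO libraries were fitted (adjusted p = 0.055). Of all genes tested, 20.5% were called with all libraries, 30.2% without DMSO 2 and cisplatin 2, and 8.65% with the 6 libraries.

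The other 4 tested members were not called with cisplatin. RELB had 19.9, 17.6 and 18.7 CPM with cisplatin, against 21.5, 30.8 and 20.5 CPM with DMSO (log2 −0.37, 95% interval −0.73 to −0.02, adjusted p = 0.125). NFKBIA had 29.8, 30.7 and 28.0 CPM, against 30.9, 37.0 and 34.8 CPM with DMSO (log2 −0.22, interval −0.47 to 0.04, adjusted p = 0.203). NFKB2 had 65.3, 73.7 and 67.8 CPM, against 75.4, 101 and 73.9 CPM with DMSO (log2 −0.28, interval −0.56 to 0.00, adjusted p = 0.142). In each of these 3 genes the highest cisplatin library lay just below the lowest DMSO library. With NFKB1, 4 of the 5 tested members were thus apart and lower with cisplatin, as were 19.4% of all genes tested. The highest cisplatin value of NFKBIA was 30.7 CPM, against a lowest DMSO value of 30.9. By library totals alone, NFKBIA and NFKB2 overlapped between the groups. NFKBIA had 1297 counts of 39.5 M in cisplatin 2 and 1098 of 36.4 M in DMSO 1. NFKB2 had 3111 counts of 39.5 M in cisplatin 2 and 2959 of 40.83 M in DMSO 3. With a correction for GC content RELB and NFKB2 were called lower (adjusted p = 0.0284 and 0.00867), while without DMSO 2 and cisplatin 2 their log2 changes shrank to −0.12 and −0.16 (adjusted p = 0.51 and 0.0736). TNFAIP3 had 2.42, 2.53 and 2.85 CPM with cisplatin, within the range of the DMSO libraries (log2 0.01, interval −0.63 to 0.64, adjusted p = 0.993).

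Pt-ttpy and cisplatin were compared directly to ask whether the drugs differed. They were given at different concentrations, 5.5 and 0.6 µM, each at its own IC80, and share the same DMSO controls. Of the 5 tested members 0 were called, against 0.0578% of all genes called higher and 0.456% called lower. Among the members 0 had an unadjusted p under 0.05, against 1254 of all 15558 genes tested. DESeq2's Wald test also called 0, against 1.47% of all genes to which it gave an adjusted p. Among 5 members such counts of 0 say little. The difference nearest to 0 was that of NFKB1 (log2 0.03, 95% interval −0.22 to 0.28). The intervals of the others were −0.63 to 0.09 for RELB, −0.46 to 0.05 for NFKBIA, −0.13 to 0.43 for NFKB2 and −1.09 to 0.20 for TNFAIP3. The calls of RELB and NFKBIA against DMSO with Pt-ttpy, and not with cisplatin, are therefore not shown to be a difference between the drugs. The libraries of the drugs did not overlap in 4 of the 5 members. Pt-ttpy libraries lay below cisplatin libraries in RELB (14.7 to 17.0 against 17.6 to 19.9 CPM), NFKBIA (24.8 to 27.0 against 28.0 to 30.7 CPM) and TNFAIP3 (1.57 to 2.14 against 2.42 to 2.85 CPM), and above them in NFKB2 (74.7 to 77.7 against 65.3 to 73.7 CPM). By library totals alone NFKB2 overlapped, with 2429 counts of 32.35 M in Pt-ttpy 1 and 3111 of 39.5 M in cisplatin 2. Over all genes tested 10.5% were apart and higher with Pt-ttpy and 10.1% apart and lower.

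**Figure D3:**
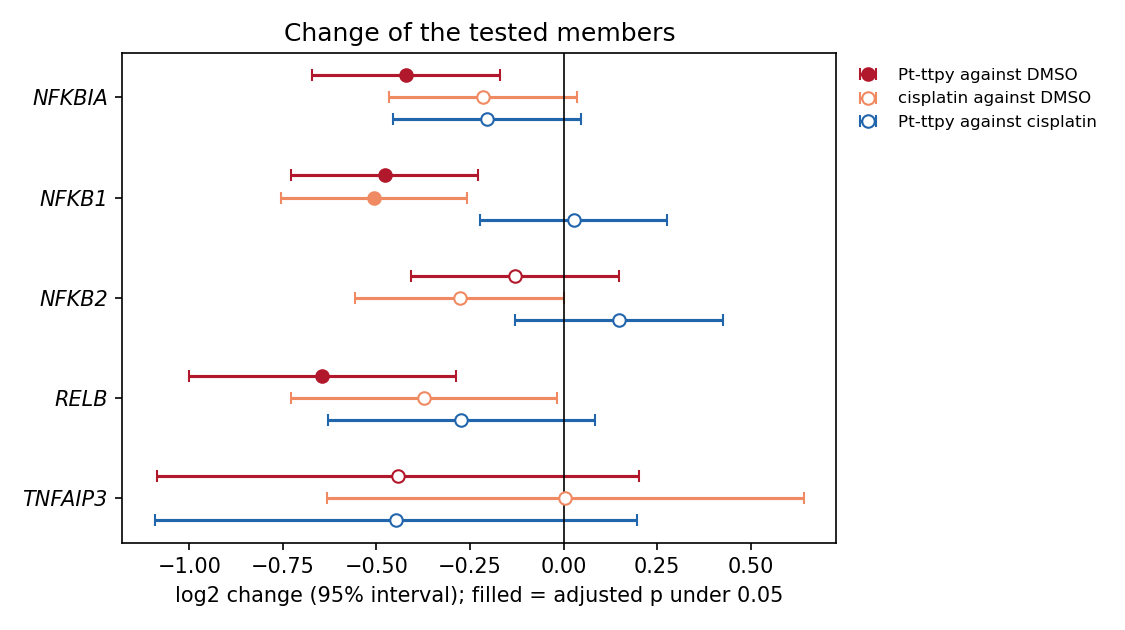
Fitted log2 change of the 5 tested members with its 95% interval in the 3 comparisons, filled where the adjusted p was under 0.05. NFKB1 is filled against DMSO with both drugs, and NFKBIA and RELB with Pt-ttpy alone, while the intervals of the direct comparison of the drugs span 0 for every member.

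Ratios between members within a library do not depend on how libraries are scaled. They were chosen after the levels had been seen. Per exon length, the ratio of NFKB2 to NFKB1 was 1.18, 1.25 and 1.17 with Pt-ttpy and 0.948, 1.41 and 1.02 with cisplatin, against 0.861, 1.10 and 0.853 with DMSO. All 3 Pt-ttpy libraries lay above all DMSO libraries, and DMSO 2 and cisplatin 2 were the highest of their groups. The ratio of RELB to NFKB2 was 0.337, 0.281 and 0.284 with Pt-ttpy and 0.451, 0.352 and 0.408 with cisplatin, against 0.422, 0.448 and 0.411 with DMSO. The Pt-ttpy libraries lay below those of both other groups. The ratio of NFKBIA to NFKB1 was 0.808, 0.752 and 0.716 with Pt-ttpy and 0.817, 1.113 and 0.792 with cisplatin, against 0.667, 0.757 and 0.760 with DMSO. The cisplatin libraries lay above the DMSO libraries, cisplatin 2 by far the most, and Pt-ttpy overlapped both. In two-sided exact permutation tests of these 3 ratios over the 3 comparisons, the smallest p was 0.1, the least that 3 against 3 libraries allow, and the smallest adjusted p over the 9 tests was 0.225.

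The pattern of a member over the 9 libraries was compared with that of every other tested gene with a symbol. The measure was the root mean square difference of the log2 levels, each centred on its own mean. The genes closest to NFKB1 were GLRX3, a glutaredoxin, and ALG2, a mannosyltransferase of N-glycan synthesis, at 0.035 and 0.042 on the log2 scale. The closest to NFKBIA were RAB1B, a GTPase of transport from the endoplasmic reticulum to the Golgi, and BET1L, a Golgi SNARE, at 0.06 each. The closest to RELB were KAT2A, a histone acetyltransferase, and TUSC2, at 0.07 each. Among the members themselves the most alike pair was NFKBIA and RELB at 0.16, and the least alike was NFKB1 and TNFAIP3 at 0.34. A nearest gene is picked from all these genes and a member pair is not, so these values cannot be ranked against each other. The value of a typical pair of genes was not computed.

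The 3 cytokine and chemokine genes among the members were at or near 0 in every group. IL6 (ENSG00000136244, chromosome 7, 22725884 to 22732002), the gene of interleukin 6, had 0 counts in all 9 libraries. A count of 0 allows up to 3 counts, which is 0.0711 to 0.0966 CPM depending on the library. CXCL8 (ENSG00000169429, chromosome 4, 73740506 to 73743716), the gene of the neutrophil attractant interleukin 8, had 0, 0 and 0 counts with Pt-ttpy and 0, 0 and 2 with cisplatin, against 2, 0 and 0 with DMSO. CCL2 (ENSG00000108691, chromosome 17, 34255218 to 34257203), the gene of the monocyte attractant MCP-1, had 3 counts in cisplatin 1 and 0 in the other 8 libraries. No difference was detectable at this depth for these 3 genes.

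BIRC3 (ENSG00000023445, chromosome 11, 102317450 to 102339403) encodes cIAP2, a ubiquitin ligase that restrains cell death downstream of the TNF receptor. It had 0, 0 and 0 counts with Pt-ttpy and 3, 0 and 4 with cisplatin, against 3, 2 and 4 with DMSO. The Pt-ttpy libraries were at 0 and the DMSO libraries just above it, with an exact permutation p of 0.1 (two-sided, the smallest possible). Fitted without the filter on low counts, its adjusted p was 0.253. Of all genes tested, a set without BIRC3, 20.6% were apart and lower with Pt-ttpy against DMSO.

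ICAM1 (ENSG00000090339, chromosome 19, 10270835 to 10286615) encodes the adhesion molecule that binds leukocyte integrins. It had 7, 6 and 6 counts with Pt-ttpy and 4, 5 and 6 with cisplatin, against 0, 0 and 2 with DMSO. Every treated library lay above every DMSO library, as in 20.3% of all genes tested for Pt-ttpy and 18.6% for cisplatin. The levels of ICAM1 were 0.187 ± 0.0246 CPM with Pt-ttpy and 0.142 ± 0.0317 with cisplatin, against 0.0166 ± 0.0288 with DMSO (SD, n = 3). The ratio of the summed counts was 10.3 for Pt-ttpy to DMSO (19 against 2 counts, exact 95% interval 2.49 to 91.4) and 7.75 for cisplatin to DMSO (15 against 2, interval 1.80 to 69.8). These intervals cover counting error only. The exact permutation p was 0.1 in each case (two-sided, the smallest possible). Without the filter on low counts the adjusted p was 0.249 with Pt-ttpy and 0.275 with cisplatin. ICAM1 and IL6 share exon positions with genes on the opposite strand, so the few counts of ICAM1 could belong to either strand. Counts of 1 were also rarer in the deposited table than counts of 2 (1146 against 3801 values), so the lowest counts may not be plain tallies of reads.

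**Figure D4:**
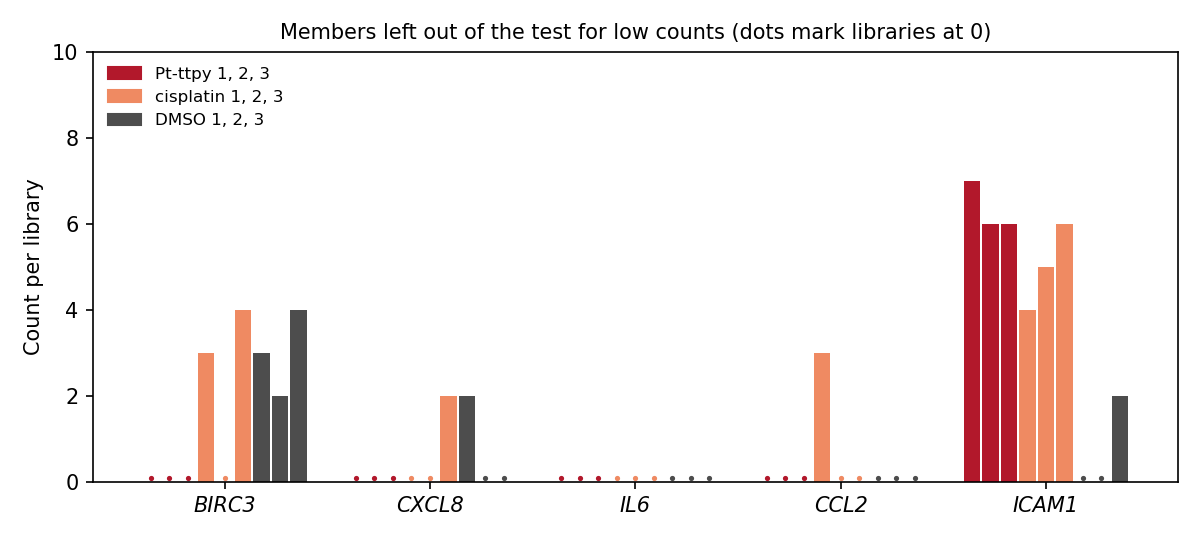
Counts per library of the 5 members left out of the test, with 9 bars per gene (Pt-ttpy 1 to 3, cisplatin 1 to 3, DMSO 1 to 3) and dots for libraries at 0. ICAM1 has 4 to 7 counts in the 6 treated libraries and 0, 0 and 2 with DMSO, BIRC3 has 0 with Pt-ttpy, and IL6 is at 0 throughout.

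The wider NF-kB pathway was covered by 99 further genes, of which 68 passed the filter. With Pt-ttpy 10 of the 68 changed, 4 higher and 6 lower, against 5.59% higher and 6.45% lower over all genes tested. The split turned to 6 higher and 3 lower with upper-quartile factors and with library totals alone. With cisplatin 14 changed, 10 higher and 4 lower, against 10.7% and 9.78%, and with either of those scalings 12 rose and 3 fell. The median was −0.08 with each drug. Only the call of TLR3 among the 10 with Pt-ttpy held with each single library left out, and 10 of the 14 with cisplatin did.

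Of the other Rel proteins and inhibitors, 15 of 15 tested, the inhibitors NFKBIB and TNIP2 fell with both drugs. NFKBIB, the gene of IkB-beta, had 31.1, 34.0 and 36.0 CPM with Pt-ttpy (log2 −0.73, adjusted p = 0.0157) and 38.7, 26.5 and 36.3 with cisplatin (log2 −0.72, adjusted p = 0.00897), against 49.3, 63.4 and 54.7 CPM with DMSO. Its exons overlap those of SIRT2 on the opposite strand. TNIP2, which assists A20, had 33.5, 29.6 and 34.4 CPM with Pt-ttpy (log2 −0.80, adjusted p = 0.00943) and 37.3, 35.4 and 33.4 with cisplatin (log2 −0.68, adjusted p = 0.00858), against 47.8, 69.1 and 52.7 CPM with DMSO. In both genes every treated library lay below every DMSO library. BCL3, an atypical IkB protein, rose with cisplatin (log2 0.67, adjusted p = 0.0244), and had log2 0.39 with Pt-ttpy (adjusted p = 0.178). The remaining 12 were not called with either drug. Among them, RELA and REL were singled out after their values had been seen, to complete the Rel family. RELA, the main activating subunit, had log2 −0.38 with Pt-ttpy (adjusted p = 0.0572) and −0.31 with cisplatin (0.0882). REL had log2 0.32 with Pt-ttpy (0.343) and −0.11 with cisplatin (0.759).

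Of the receptors and adaptors upstream, 17 of 21 were tested. TLR3, a sensor of double-stranded RNA, rose with both drugs. It had 6.40, 6.65 and 7.32 CPM with Pt-ttpy (log2 1.45, SE 0.27, adjusted p = 0.0105) and 7.31, 9.26 and 6.64 with cisplatin (log2 1.64, SE 0.27, adjusted p = 0.00277), against 2.56, 1.55 and 3.32 CPM with DMSO. IRAK1, a kinase gene of interleukin 1 and Toll-like receptor signalling, fell with both drugs (log2 −0.42 with Pt-ttpy, adjusted p = 0.0463, and −0.41 with cisplatin, 0.0355). TNFRSF12A, the receptor of TWEAK, fell with Pt-ttpy (log2 −0.57, adjusted p = 0.044), and had −0.49 with cisplatin (0.0547). LTBR, the lymphotoxin beta receptor, rose with cisplatin (log2 2.23, adjusted p = 0.0139) and was low throughout, with 1.80, 3.13 and 1.90 CPM with cisplatin against 0.253, 0.286 and 0.899 CPM with DMSO. It had log2 1.21 with Pt-ttpy (0.148). Of the kinase arm and its ubiquitin ligases, all 12 tested, IKBKB, the gene of the catalytic kinase of the canonical pathway, fell with Pt-ttpy (log2 −0.47, adjusted p = 0.0372) and was not called with cisplatin (−0.17, 0.384), and the other 11 were not called with either drug.

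Of the other cytokines and chemokines 4 of 20 had enough counts to be tested. CSF1, the growth factor of macrophages, and LIF, a cytokine of the interleukin 6 family, rose with cisplatin. CSF1 had 4.59, 7.84 and 5.84 CPM with Pt-ttpy and 15.2, 16.1 and 13.4 with cisplatin, against 3.10, 4.58 and 3.10 CPM with DMSO. Its log2 change was 2.05 with cisplatin (adjusted p = 0.000349) and 0.76 with Pt-ttpy (adjusted p = 0.0533). LIF had 8.99, 6.65 and 7.05 CPM with Pt-ttpy and 14.9, 18.1 and 14.2 with cisplatin, against 6.50, 9.28 and 6.39 CPM with DMSO. Its log2 change was 1.09 with cisplatin (adjusted p = 0.00495) and 0.03 with Pt-ttpy (0.929). These were the only 2 of the 68 genes called between the drugs, with log2 −1.29 for CSF1 (adjusted p = 0.0301) and −1.06 for LIF (0.0409), Pt-ttpy over cisplatin. Each of these 2 calls was lost without any single one of the Pt-ttpy or cisplatin libraries and without DMSO 3, that of LIF also without DMSO 1, with adjusted p up to 0.189 for CSF1 and 0.255 for LIF. The remaining 16 genes, TNF, IL1B and CXCL1 among them, had at most 15 counts summed over a group. Exons of LIF overlap antisense genes.

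Of the other target genes, 17 of 23 were tested. C3, the central complement protein, and TNFAIP2 rose with both drugs. C3 had 2.92, 3.10 and 2.64 CPM with Pt-ttpy (log2 1.33, adjusted p = 0.0201) and 4.06, 7.84 and 3.91 with cisplatin (log2 2.20, adjusted p = 0.00107), against 1.10, 1.12 and 1.22 CPM with DMSO. TNFAIP2 rose by log2 1.12 with Pt-ttpy (adjusted p = 0.0393) and by 1.64 with cisplatin (0.00603). CFLAR, an inhibitor of caspase 8 activation, rose by log2 0.39 with Pt-ttpy (0.0426) and by 0.37 with cisplatin (0.0387). JUNB, an AP-1 transcription factor, had log2 −0.68 with Pt-ttpy (0.0343) and −0.75 with cisplatin (0.0156), and its calls were lost without DMSO 2 and cisplatin 2 (0.0748 and 0.154). TAP1, a peptide transporter of antigen presentation, and PLAU, the urokinase gene, rose with cisplatin (log2 0.82, adjusted p = 0.00792, and 0.69, 0.0216) and were not called with Pt-ttpy (0.11, 0.719, and 0.50, 0.092). VCAM1 and SELE, which encode adhesion molecules of endothelial cells, had 0 counts in all 9 libraries. CFLAR, JUNB, TAP1, PLAU, TNFRSF12A, LTBR, IRAK1 and BCL3 share exon positions with other genes as well.

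With single libraries left out, the calls with Pt-ttpy other than that of TLR3 were lost without at least 1 of the Pt-ttpy libraries. The highest adjusted p was 0.0629 for TNIP2 (without Pt-ttpy 2 only), 0.0775 for NFKBIB, 0.0831 for C3, 0.115 for TNFAIP2, 0.13 for JUNB, 0.149 for TNFRSF12A, 0.151 for IKBKB, 0.152 for CFLAR and 0.165 for IRAK1. Calls of C3, TNFAIP2, JUNB, TNFRSF12A, IKBKB, CFLAR and IRAK1 were lost without 1 or more DMSO libraries as well, and those of TNFAIP2, TNFRSF12A, IKBKB, CFLAR and IRAK1 without 1 or more cisplatin libraries. IRAK1 moved most without DMSO 2, to log2 −0.25 with Pt-ttpy (adjusted p = 0.0707) and −0.24 with cisplatin (0.0508). In the fits without a Pt-ttpy library the number of all genes called fell to between 185 and 299, against 1874 with all libraries. With cisplatin the lost calls were those of PLAU (without cisplatin 1, cisplatin 2 or DMSO 1, up to 0.0661), BCL3 (without cisplatin 2, DMSO 1 or DMSO 3, up to 0.0758, with log2 0.41 without cisplatin 2), IRAK1 (7 of the 9 fits, up to 0.0873) and CFLAR (7 of the 9 fits, up to 0.126). Other settings lost calls too. With Pt-ttpy, IKBKB, TNFRSF12A and IRAK1 were lost with upper-quartile factors and library totals alone. JUNB and TNFRSF12A were lost with the GC correction, CFLAR without the filter, and IRAK1 with 6 libraries or no robust estimation. With cisplatin, JUNB, PLAU, BCL3, CFLAR and IRAK1 were lost with 6 libraries. IRAK1 was also lost with both scalings, and CFLAR without the filter.

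Of the receptors that the members' ligands bind, the interleukin 6 receptor chains IL6R and IL6ST had counts in every library, while those for CXCL8 and CCL2 had few or 0. IL6R had 17.6, 19.8 and 21.1 CPM with Pt-ttpy and 18.5, 20.4 and 15.35 with cisplatin, against 19.6, 22.7 and 17.99 CPM with DMSO. None of the 3 tested receptor genes was called with either drug. CXCR1 had 0 counts throughout, and CCR2 had at most 2 counts summed over a group. CXCR2 had 0, 0 and 5 counts with Pt-ttpy and 5, 13 and 8 with cisplatin, against 0, 2 and 0 with DMSO. Of the integrin genes for ICAM1, ITGAM had 0, 0 and 2 counts with Pt-ttpy and 0, 19 and 6 with cisplatin, against 0, 0 and 0 with DMSO. ITGAL had 9, 0 and 2, then 0, 11 and 2, against 8, 17 and 13 with DMSO. CXCR2, ITGAM and ITGAL did not pass the filter on low counts. These values were singled out because they belong to the members' ligands.

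**Figure D5:**
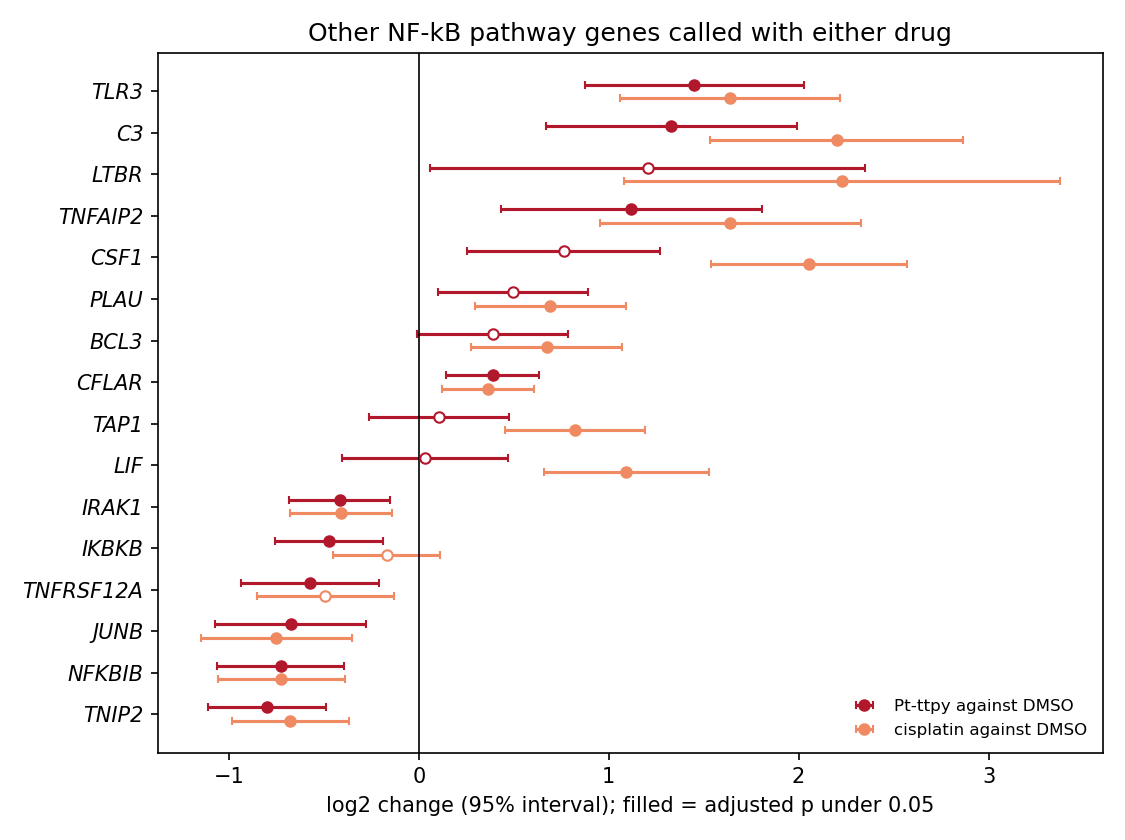
Fitted log2 change with its 95% interval of the 16 further pathway genes called with either drug, for Pt-ttpy against DMSO (upper point) and cisplatin against DMSO (lower point), filled where the adjusted p was under 0.05. The comparisons share their DMSO libraries. TLR3, C3 and TNFAIP2 are filled to the right of 0 with both drugs and NFKBIB, TNIP2, JUNB and IRAK1 to the left, while CSF1 and LIF are filled with cisplatin alone.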

How the data were processed

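Per the labels' protocols, total RNA went into mRNA sequencing libraries. The authors deposited raw counts per gene for 9 libraries, 3 a group, and all columns belong to a sample. The genome build was GRCh38, per the submitters' processing notes. How reads were aligned, counted and assigned to strands is not given in the sources used here. Symbols came from a separate list of gene names by Ensembl identifier, or from GENCODE 29 where that list had none. Gene positions, merged exons and GC content came from GENCODE 29. Low counts were removed by filterByExpr (minimum count 10), and the rest, with TMM factors, were fitted in edgeR 4.0.16 (R 4.3.3, robust quasi-likelihood, prior count 0.125, 1 mean per group, 9 libraries). CPM use the TMM-scaled library sizes. Intervals (95%) are t intervals of the fit. In simulated counts the fit recovered most of the largest planted changes. All planted changes were larger than those of the called members, and the GC trend of DMSO 2 and cisplatin 2 was not simulated. No 2 libraries were duplicates.

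The members, the 99-gene list and the marker lists were written from general knowledge, with earlier results of these data known. The text names all members, the called genes of the wider list (up to 12 a comparison by adjusted p, also given in the other comparisons) and, for each called member, the 2 genes of nearest pattern. For nearest patterns 0.5 was added to CPM before taking logs. Other settings were DESeq2 1.42.0 (size factors, Wald test), upper-quartile factors, library totals, 2 other filters, no robust estimation, 6 or 7 libraries, a replicate block and each library left out. A GC correction (lowess span 0.3) was added after the GC trend had been seen.

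Replicate numbers were checked for pairing by the correlation of deviations from the group means. It was 0.20, 0.35 and 0.18 between cisplatin and DMSO libraries of the same number, and −0.04 to 0.09 in the pairs with Pt-ttpy. Of the cisplatin and DMSO libraries of different number, 2 pairs reached 0.13. The values given are from the fit without the replicate number, and the fit with it as a block is one of the other settings.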

Additional observations from a re-analysis of the deposited data

How the results depend on the processing

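Of 300 refits of the 15 member changes, 273 kept their direction and their side of the threshold, 17 lost and 2 gained a call, and 8 changed sign, all 8 in changes that were not called. Most of the 15 changes were not called with all libraries, so they had no call to lose. Of 20 refits each, NFKBIA with Pt-ttpy kept its call in 11, RELB in 16 and NFKB1 in 17. NFKB1 with cisplatin kept its call in 19. Of the 17 losses, 14 came with a single library left out. Without DMSO 2 and cisplatin 2 the signs that turned were those of NFKB2 with Pt-ttpy (log2 0.038), TNFAIP3 with cisplatin (−0.006) and NFKB1 between the drugs (−0.09). With single libraries left out these ranged from −0.211 to 0.038, from −0.203 to 0.287 and from −0.089 to 0.102, and REL with cisplatin (log2 −0.11 with all libraries) from −0.292 to 0.106. The cause was not tested.

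Members called numbered 0 to 3 with Pt-ttpy, 1 to 1 with cisplatin and 0 to 0 between the drugs with single libraries left out, 0 (6 libraries) and 3 (GC correction) with cisplatin. Wider genes called were 1 to 18, 11 to 15 and 0 to 3 with single libraries left out, 29 (7 libraries), 19 (DESeq2 Wald test), 17 (GC correction) and 16 (replicate block) with Pt-ttpy, 9 (6 libraries) and 24 (GC correction) with cisplatin, and 4 between the drugs with 7 libraries, the Wald test or the block. All genes called were 185 to 3004, 2012 to 3100 and 18 to 155 with single libraries left out, 5189 (7 libraries) and 3553 (GC correction) with Pt-ttpy, 1313 (6 libraries) and 5039 (GC correction) with cisplatin, and 813 (7 libraries), 251 (Wald test), 213 (GC correction) and 140 (replicate block) between the drugs. With Pt-ttpy 870 genes were higher and 1004 lower, against 1050 and 666 with upper-quartile factors and 1005 and 773 with library totals alone. With cisplatin the split was 1669 and 1521, against 1940 and 913, 1995 and 943, and 918 and 395 with 6 libraries. The replicate block changed no call of a member. A fit with 2 libraries in a group has fewer degrees of freedom, and genes with under about 10 counts a library cannot be compared at this depth.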
